A study of Xenopus allofraseri with 8 samples.

Results

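The gene described here is TR21009|c5_g1, a gene of the de novo Trinity assembly whose isoform i2 carries the symbol ocm4.1 in the study's list of differentially expressed transcripts. Its members are all assembled isoforms of that gene, 5 of the 218541 transcripts quantified, which Trinity placed in 1 of 163981 genes. The gene was chosen because isoform i2 had been called different between the same groups of frogs that are compared here, so the group contrast of its isoforms and of their sum is given as a description, with no test to support it. The symbol was joined to i2 through its fold change and FDR, and no sequence of the assembly was used here.

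Oncomodulins, to which ocm4.1 belongs by name, are parvalbumins, small cytosolic proteins that bind calcium through EF-hand loops. Parvalbumins are abundant in the fast skeletal muscle fibres of fishes and amphibians. By taking up calcium after a contraction they are known to speed the relaxation of a fibre.

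The frogs were 8 adult Xenopus allofraseri males caught in the wild in a single pond in Cameroon and then kept in aquaria. The study put 4 of them (A, D, E and G) in an endurant group and 4 (B, C, F and H) in a burst-performant group by clustering 4 traits, namely the distance and time to exhaustion on a track and the maximal velocity and acceleration in swimming. No frog was treated, no genotype or age is given, and the groups are defined by performance alone, so whatever else differed between these animals cannot be told apart from it. PolyA RNA from the right knee extensor muscles gave 1 library per frog, with between 4715751 and 17359253 estimated counts in endurant frogs and between 4449192 and 13611485 in burst-performant frogs. Frogs C and D had few estimated counts for the read pairs that the study lists. It lists the most for frog C, and more for frog D than for frogs A and G. Why these libraries differed, and what part this had in any result, was not tested. The muscle genes mybpc2 and tmod4, identified by the same join, were found in every library, with mybpc2 at 179 ± 19.9 CPM in the endurant and 184 ± 126 CPM in the burst-performant frogs (SD, n = 4 each, TMM-scaled). Of the other muscle symbols looked up, lmo7 was found in every library, whereas fsd2 was at 0 in frogs A, D, E, G and H. The symbol spib, a transcription factor of lymphoid and myeloid blood cells, averaged 14.3 ± 2.93 CPM in the endurant and 17.4 ± 6.29 CPM in the burst-performant frogs (SD, n = 4 each), and its part in any result was not tested. These are gene totals, with a log2 fold change, endurant minus burst-performant, of -0.26 (SE 0.30). The study reports spib, from a called transcript, as higher in endurant frogs, unlike the sign of this total.

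TR21009|c5_g1 was among the most abundant genes of the muscle in all 8 frogs, and nearly all of it was a single isoform. Levels are given as TPM, a share of all transcripts of a library that is corrected for transcript length. The gene total was 4301, 4666, 4085 and 4134 TPM in endurant frogs (A, D, E, G) and 6656, 9607, 5252 and 9122 TPM in the burst-performant frogs (B, C, F, H). By TPM it ranked between 34 and 40 among all genes in endurant frogs and between 20 and 27 in burst-performant frogs. Frog C had the highest total, frog H was close to it, and frog F had the lowest of the burst-performant frogs while still above every endurant frog, so that the groups did not overlap on this scale.

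The group means of the gene total were 4296 ± 263 TPM in the endurant and 7659 ± 2060 TPM in the burst-performant frogs (SD, n = 4 each). The endurant frogs were close to each other, with an SD of 6.13% of their mean, against 26.9% in burst-performant frogs. Of all gene totals tested, 0.544% had TPM values that did not overlap and were lower in every endurant frog. Nothing is read from this for ocm4.1, since the same contrast chose the gene. In bulk muscle, fewer fibres that express the gene and less of its RNA per fibre cannot be told apart.

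**Figure D1:**
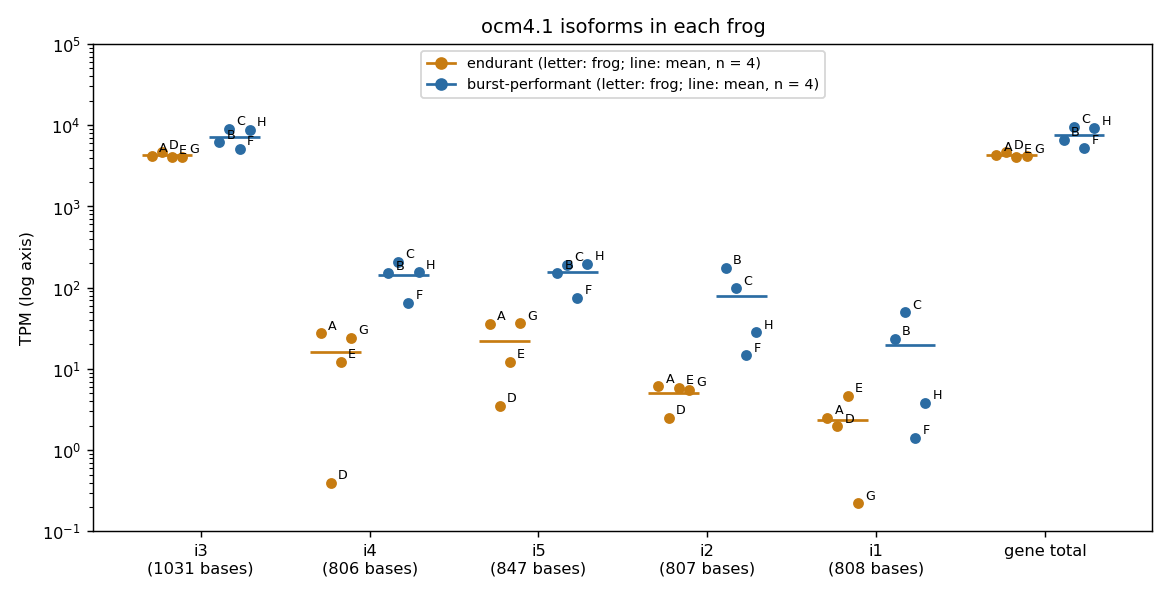
TPM on a log axis of the 5 ocm4.1 isoforms, with their lengths, and of the gene total, for endurant frogs (left of each pair) and burst-performant frogs (right), with 1 lettered point per frog and a line at the group mean. The longest isoform, i3, lies close to the gene total in all 8 frogs, and the groups overlap only for i1.

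Isoform i3, the longest at 1031 bases, made up most of the gene. It had 4229, 4658, 4050 and 4068 TPM in endurant frogs (A, D, E, G) and 6152, 9060, 5096 and 8738 TPM in the burst-performant frogs (B, C, F, H). The order of the frogs in i3 was that of the gene total, and the groups did not overlap. Its share of the gene's estimated counts was 98.7%, 99.9%, 99.4% and 98.8% in endurant frogs (A, D, E, G) and 94.2%, 95.7%, 97.7% and 96.8% in the burst-performant frogs (B, C, F, H). Every endurant frog thus had a larger share of i3 than every burst-performant frog. The mean share was 99.2 ± 0.540% in the endurant and 96.1 ± 1.5% in the burst-performant frogs (SD, n = 4 each).

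The remaining counts fell on 4 shorter isoforms, i4, i2, i1 and i5, with lengths of 806, 807, 808 and 847 bases. Summed, they had 72.0, 8.42, 34.9 and 66.4 TPM in endurant frogs (A, D, E, G) and 504, 547, 156 and 384 TPM in the burst-performant frogs (B, C, F, H). No endurant frog reached the level of frog F, the lowest of the burst-performant frogs, and frog D was far below the other endurant frogs. In estimated counts, the shorter isoforms had 542.0, 37.8, 619 and 633 in endurant frogs (A, D, E, G) and 6980.2, 4809, 1947 and 1653 in the burst-performant frogs (B, C, F, H). The value of frog D therefore rests on few read pairs, whereas frog H, whose library was smaller still, had the 1653 counts given here.

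As a share of the gene, the shorter isoforms took 1.27%, 0.136%, 0.643% and 1.24% of the counts in endurant frogs (A, D, E, G) and 5.76%, 4.32%, 2.26% and 3.23% in the burst-performant frogs (B, C, F, H). The group means were 0.822 ± 0.540% in the endurant and 3.89 ± 1.5% in the burst-performant frogs (SD, n = 4 each). The ratio of burst-performant over endurant mean TPM was 8.75 for the shorter isoforms summed and 1.71 for i3, so the short forms differed more between the groups than the form that dominated the gene. No test was made of this difference, because the contrast chose the gene through a short form.

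**Figure D2:**
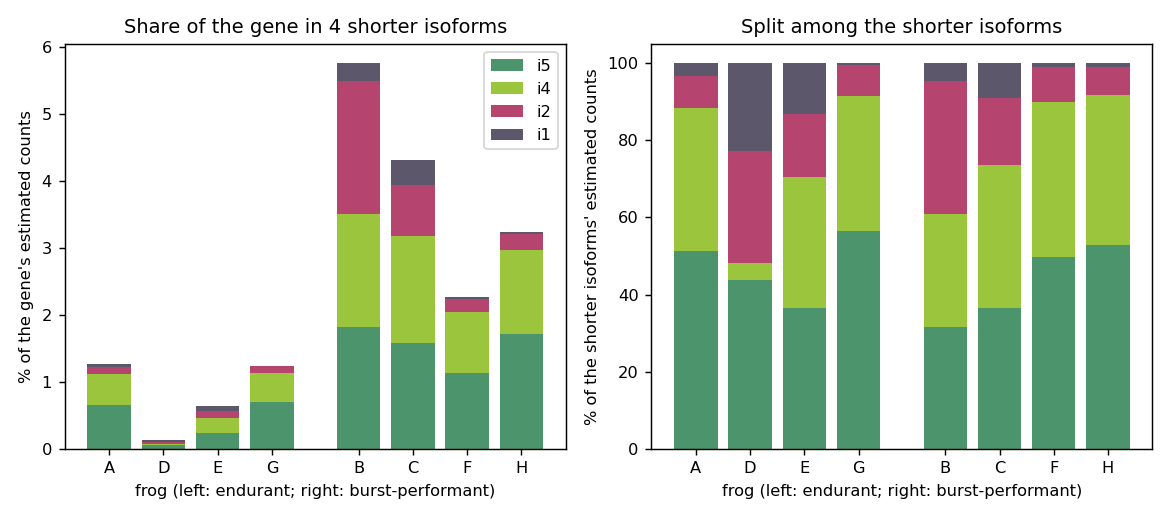
Share of the gene's estimated counts in the 4 shorter isoforms (left panel, % of the gene) and the split of those counts among them (right panel, % of the shorter isoforms), 1 stacked bar per frog, with endurant frogs (A, D, E, G) left of the burst-performant ones (B, C, F, H). The shorter isoforms hold 0.136% to 1.27% of the gene in endurant frogs and 2.26% to 5.76% in burst-performant frogs, and i2 takes its largest part of them in frog B.

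Isoform i2 is the one that chose the gene. It had 6.12, 2.52, 5.90 and 5.55 TPM in endurant frogs (A, D, E, G) and 177, 98.0, 14.7 and 28.4 TPM in the burst-performant frogs (B, C, F, H). Frogs B and C stood apart from all others, frogs F and H were nearer to the endurant frogs, and the groups did not overlap. The estimated counts behind these levels were 44.7, 11, 102 and 51.2 in endurant frogs (A, D, E, G) and 2401, 843, 178 and 118 in the burst-performant frogs (B, C, F, H). Mean levels were 5.02 ± 1.69 TPM in the endurant and 79.4 ± 74.4 TPM in the burst-performant frogs (SD, n = 4 each), with an SD close to the mean in the burst-performant frogs.

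Of the gene's counts, i2 took 0.105%, 0.0396%, 0.106% and 0.0999% in endurant frogs (A, D, E, G) and 1.98%, 0.758%, 0.206% and 0.231% in the burst-performant frogs (B, C, F, H). The mean difference, endurant minus burst-performant, was -0.706 percentage points, and it was -0.311 points without burst-performant frog B. That frog alone held more i2 than the other 7 frogs together, by counts and by TPM. Within the shorter isoforms, the share of i2 did overlap between the groups, with 8.08% to 29.1% in endurant frogs and 7.15% to 34.4% in burst-performant frogs.

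Isoforms i4 and i5 were the most abundant of the shorter forms in most frogs. Isoform i4 had 27.6, 0.394, 12.1 and 24.1 TPM in endurant frogs (A, D, E, G) and 151, 207, 64.8 and 155 TPM in the burst-performant frogs (B, C, F, H). Isoform i5 had 35.8, 3.55, 12.2 and 36.5 TPM in endurant frogs (A, D, E, G) and 153, 191, 75.3 and 197 TPM in the burst-performant frogs (B, C, F, H). For both, frog D was the lowest of all frogs and frog F the lowest of the burst-performant frogs, and the groups did not overlap.

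Mean levels of i4 were 16.1 ± 12.4 TPM in the endurant and 145 ± 59.0 TPM in the burst-performant frogs (SD, n = 4 each). Those of i5 were 22.0 ± 16.7 TPM in the endurant and 154 ± 56.1 TPM in the burst-performant frogs (SD, n = 4 each). The ratio of i4 to i5 counts was 0.723, 0.104, 0.932 and 0.621 in endurant frogs (A, D, E, G) and 0.927, 1.02, 0.807 and 0.737 in the burst-performant frogs (B, C, F, H). Outside frog D, where i4 had 1.72 estimated counts, the ratio lay between 0.621 and 1.02 in frogs of both groups.

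Isoform i1 was the rarest on average, and its SD was the largest of the 5 isoforms relative to the mean, at 78.3% in endurant and 114% in burst-performant frogs. It had 2.50, 1.96, 4.65 and 0.221 TPM in endurant frogs (A, D, E, G) and 23.7, 49.9, 1.41 and 3.82 TPM in the burst-performant frogs (B, C, F, H). Frogs B and C were high, as they were for i2, but frog F lay below 3 of the 4 endurant frogs, so the groups overlapped. The value of frog G rests on 2.04 estimated counts.

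Reads that match several isoforms were divided among them by Kallisto, which limits how far the isoforms can be told apart. Of the 40 isoform values in the 8 frogs, 36 were not whole numbers within 0.01, including all values of i1, i4 and i5 and 7 of the 8 values of i2. Isoforms i1, i2 and i4 differ in length by 2 bases at most, and how reads were split between isoforms was not tested against their sequences. Their sum was 36.2, 4.87, 22.7 and 29.9 TPM in endurant frogs (A, D, E, G) and 351, 355, 80.9 and 187 TPM in the burst-performant frogs (B, C, F, H). The sum did not overlap between the groups, and frogs B and C were at the same level in it, although i2 alone was higher in frog B and i1 and i4 in frog C.

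Among all transcripts tested, 0.685% had TPM values that did not overlap and were lower in every endurant frog, and 4 of the 5 isoforms (i2, i3, i4 and i5) were of this kind. In the fit across all transcripts, all 5 isoforms passed the filter on low counts and all 5 had a negative log2 fold change, which stands for endurant minus burst-performant frogs. It was -4.21 (SE 0.86) for i2, -3.47 (SE 0.96) for i4, -3.29 (SE 1.27) for i1, -3.11 (SE 0.74) for i5 and -0.997 (SE 0.37) for i3. A transcript was called at an adjusted p of at most 0.05 and a log2 fold change of at least 2 in size. By edgeR's quasi-likelihood test 0 of the 5 isoforms were called, as were 0 of 55631 transcripts (0%), while 2038 transcripts (3.66%), all 5 isoforms among them, had an unadjusted p under 0.05. Nothing is read from these counts of isoforms, since the same contrast chose the gene and reads were divided among its isoforms.

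Other tests did make calls. By edgeR's exact test 1 of the 5 isoforms, i2, was called (adjusted p = 0.00619), where 0.0863% of all transcripts were called and lower in endurant frogs. By DESeq2 2 of the 5 isoforms were called, i2 (adjusted p = 5.08e-04) and i5 (adjusted p = 0.0196), where 0.124% of all transcripts were called and lower in endurant frogs. These calls restate the choice of the gene and add nothing to it. When i1, i2 and i4 were summed before the fit, an alternative added after seeing the data, the log2 fold change was -3.66 (SE 0.75), and with i5 included it was -3.41 (SE 0.73). The value of i1 depended most on the setting, with -2.12 when burst-performant frog C was left out and -1.92 by limma on log2(TPM + 1).

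**Figure D3:**
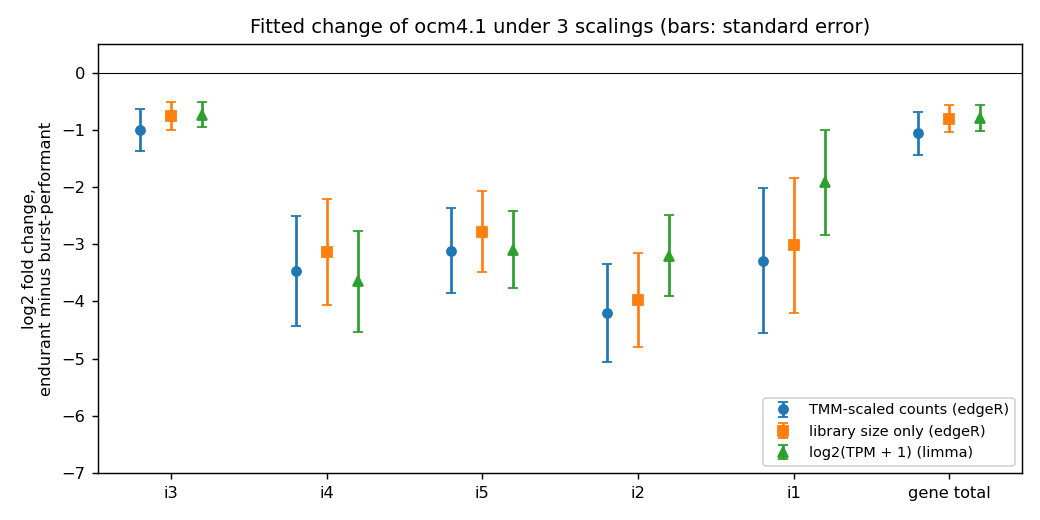
Log2 fold change, endurant minus burst-performant, of the 5 ocm4.1 isoforms and the gene total, with the standard error as bars, from edgeR with TMM scaling, edgeR with library size only and limma on log2(TPM + 1). All values lie below 0, and the 4 shorter isoforms lie further from it than i3 and the gene total under each of these scalings.

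Summed as counts, the gene total does not depend on how reads were split among its isoforms. Its TPM does, since TPM is corrected for the length of each isoform. The gene total also depended on how libraries were scaled. Counts as CPM scaled by TMM, a method that assumes most genes are alike across libraries, were 5157, 6218, 5583 and 4622 CPM in endurant frogs (A, D, E, G) and 9179, 15999, 5284 and 14639 CPM in the burst-performant frogs (B, C, F, H). On this scale frog F lay below endurant frogs D and E, and the groups overlapped. As a share of all counts, with no TMM, the gene total was 0.567%, 0.589%, 0.554% and 0.523% in endurant frogs (A, D, E, G) and 0.891%, 1.22%, 0.663% and 1.15% in the burst-performant frogs (B, C, F, H), again with no overlap. The TMM factors were furthest from 1 in burst-performant frogs, at 1.285 in frog F, 0.774 in frog C and 0.797 in frog H.

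Without i2, which held at most 1.98% of the gene's counts in any frog, the total was nearly the same. It differed between the groups by -0.93 in mean log2(CPM + 1), and by -0.72 when burst-performant frog C was left out. Mean CPM of the gene total was 5395 ± 675 in the endurant and 11275 ± 4964 in the burst-performant frogs (SD, n = 4 each). The fitted log2 fold change was -1.06 (SE 0.38) with TMM, -0.81 with library size only and -0.79 by limma on log2(TPM + 1). The median over all gene totals was 0.01 with TMM, 0.14 with library size only and 0.11 by limma. Relative to that median, the gene total of ocm4.1 stood at -1.07, -0.95 and -0.90 under these 3 scalings in the same order. It was not called by edgeR's quasi-likelihood test, which called 0 of 35656 gene totals (0%) with 1579 (4.43%) at an unadjusted p under 0.05, ocm4.1 included, and it was not among the 0.0477% of gene totals called and lower in endurant frogs by edgeR's exact test. DESeq2 called 33 gene totals, 0.0309% of all being called and lower in endurant frogs, and ocm4.1 was not one of them (adjusted p = 0.536).

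**Figure D4:**
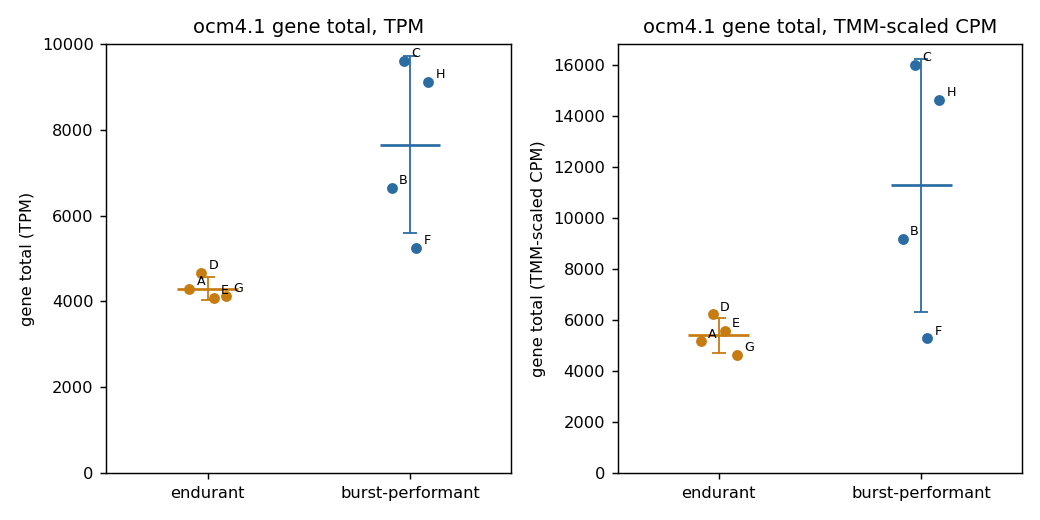
Gene total of ocm4.1 in TPM (left panel) and in TMM-scaled CPM (right panel), 1 lettered point per frog, with the group mean and SD as line and bar (n = 4 each), endurant frogs left of burst-performant frogs. Frog F lies above every endurant frog in TPM, but below endurant frogs D and E in TMM-scaled CPM.

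How the gene total went with the performance of single frogs was examined for velocity and acceleration, whose values overlap between the groups. The traits are those the study measured and used to form the groups, so this relation is not independent of the group contrast. For the gene total in log2(CPM + 1), Pearson's r with velocity was 0.380 (exact permutation p = 0.348, adjusted p = 0.353 over 4 relations, n = 8) and Spearman's rho was 0.252 (exact permutation p = 0.547, adjusted p = 0.582). With acceleration, r was 0.521 (exact permutation p = 0.164, adjusted p = 0.329, n = 8) and rho was 0.238 (exact permutation p = 0.582, adjusted p = 0.582). All these tests were 2-sided, and neither trait passed the threshold. The 4 relations were those of the gene total, with and without i2, to velocity and to acceleration. Since i2 held little of the gene, the relations without it nearly repeat the others. The coefficients depended on the scaling. In log2(TPM + 1), r with velocity was 0.547 (exact permutation p = 0.162, adjusted p = 0.170) and rho was 0.539 (exact permutation p = 0.176, adjusted p = 0.176). On the same scale, r with acceleration was 0.564 (exact permutation p = 0.122, adjusted p = 0.170) and rho was 0.643 (exact permutation p = 0.0962, adjusted p = 0.176). With library size only, rho was 0.491 with velocity and 0.595 with acceleration, and neither passed the threshold (exact permutation p = 0.222 and p = 0.132).

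Leaving i2 out of the total gave r = 0.376 with velocity (exact permutation p = 0.353) and r = 0.521 with acceleration (exact permutation p = 0.163), with adjusted p-values of 0.353 and 0.329. Without the 2 frogs furthest from the median of the trait, A and C, r with acceleration was 0.384 (exact permutation p = 0.458). In velocity frog D was furthest and frogs C and F were tied next, so r was 0.063 without C and D (exact permutation p = 0.914) and 0.626 without D and F (exact permutation p = 0.192), the second of these being added after seeing the data. In TMM-scaled CPM, Pearson's r with acceleration rested on burst-performant frog C, which was first in acceleration and in the gene total. Without frog C it was -0.015, and frogs were not left out on the other scales. With velocity, r was 0.092 without frog C and 0.630 without burst-performant frog F. In velocity, frogs C and F shared the first place, yet they had the highest and the lowest gene total of the burst-performant frogs in TPM and in TMM-scaled CPM.

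Distance and time to exhaustion did not overlap between the groups, so that a coefficient over all 8 frogs would restate the contrast that chose the gene, and 4 frogs are too few for one within a group. None was computed. Among endurant frogs, E had the longest time and distance and the lowest gene total in TPM, and D had the shortest time and distance and the highest. In TMM-scaled CPM, however, frog E was second to frog D and frog G was the lowest. Among burst-performant frogs, F lasted longest and had the lowest gene total on both scales, whereas H, the first to tire, was second to C. By distance the order was another, since C, with the highest gene total, went furthest of the burst-performant frogs and B the least far. For the shorter isoforms the order in endurant frogs was another, with frog D the lowest and frog A the highest.

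The first part of a Trinity name marks a cluster of reads that were assembled together, and read cluster TR21009 holds 9 other Trinity genes with 19 transcripts. Of these 9 genes 5 passed the filter, of which 3 had a negative log2 fold change, and by TMM-scaled CPM 0 of the 5 were free of overlap between the groups, against 3% of all gene totals in either direction. By edgeR's quasi-likelihood test, by its exact test and by DESeq2 0 of the 5 were called, while 2 had an unadjusted p under 0.05 in the quasi-likelihood test, against 4.43% of all gene totals. Of all gene totals, 0.0477% by the exact test and 0.0309% by DESeq2 were called and lower in endurant frogs. These genes share the frogs and the read cluster of a gene that this contrast chose, so nothing is read from these counts. Whether they are fragments of the same locus or related genes was not analysed here.

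The most abundant of them after ocm4.1 were TR21009|c4_g2 and TR21009|c4_g1. TR21009|c4_g1, a single transcript of 229 bases, had 126, 24.2, 61.7 and 189 TPM in endurant frogs (A, D, E, G) and 426, 523, 213 and 613 TPM in the burst-performant frogs (B, C, F, H). These values did not overlap, with frog D lowest of all and frog F lowest of the burst-performant frogs, as for i4 and i5. In TMM-scaled CPM it averaged 11.7 ± 8.39 in the endurant and 61.0 ± 32.1 in the burst-performant frogs (SD, n = 4 each), where frog G lay above frog F, and its log2 fold change was -2.37 (SE 0.62). With no filter on low counts, edgeR's quasi-likelihood test called it (-2.34, adjusted p = 5.33e-06), as it did 0.459% of all gene totals. With the filter, TR21009|c4_g1 was not called by that test, by edgeR's exact test (adjusted p = 0.135) or by DESeq2 (adjusted p = 0.0786).

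TR21009|c4_g2, with 4 isoforms of up to 420 bases, had 53.4, 103, 92.5 and 136 TPM in endurant frogs (A, D, E, G) and 70.7, 76.1, 71.8 and 252 TPM in the burst-performant frogs (B, C, F, H). Here the groups overlapped and frog H stood alone. Its log2 fold change was -0.50 (SE 0.54), and without burst-performant frog H it was 0.36.

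**Figure D5:**
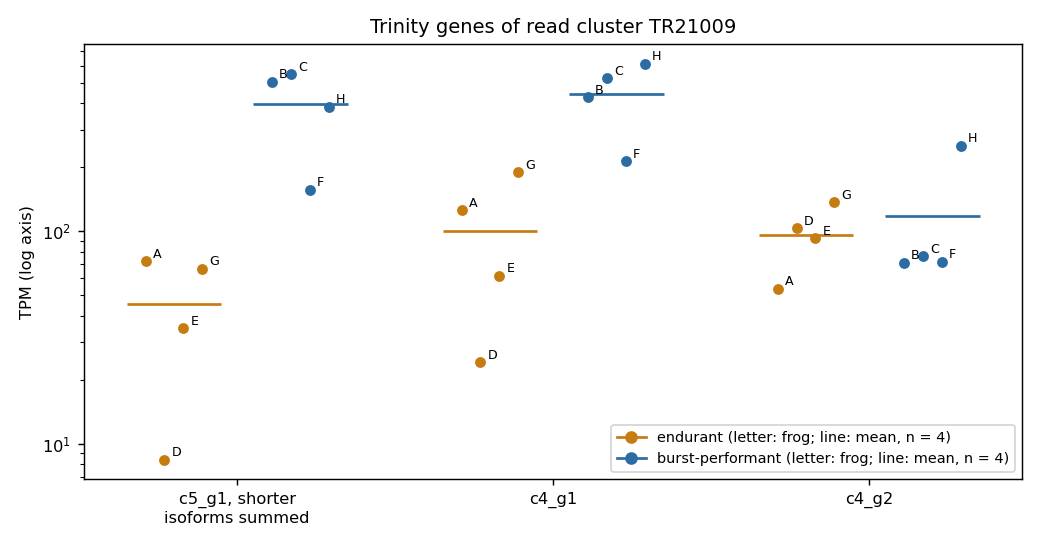
TPM on a log axis of the summed shorter isoforms of ocm4.1 (TR21009|c5_g1) and of TR21009|c4_g1 and TR21009|c4_g2, with 1 lettered point per frog and a line at the group mean, endurant frogs left of burst-performant frogs. For TR21009|c4_g1 the 4 burst-performant frogs lie between 213 and 613 TPM, above the 4 endurant frogs, whereas the groups overlap for TR21009|c4_g2.

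Other genes of calcium handling and of the sarcomere were looked up by the symbols that the study gave to its called transcripts, gca, tmod4, mybpc2, fsd2, rcsd1 and lmo7. Since each entered that list through a called isoform in these frogs, in either direction, its gene total is not independent evidence. The 6 gene totals had a median log2 fold change of -0.37, against 0.01 over all gene totals, and 0 of the 6 were called by edgeR's quasi-likelihood test, where 1 had an unadjusted p under 0.05, against 4.43% of all gene totals. By edgeR's exact test and by DESeq2 1 of the 6 was called, fsd2 in each case, against 0.0477% and 0.0309% of all gene totals called and lower in endurant frogs. The gene fsd2 was at 0 in every endurant frog and passed the filter only through burst-performant frogs, so these calls give no support. All 6 had a negative sign with TMM, but mybpc2 and lmo7 turned positive with library size only. The study reports a transcript of rcsd1 as higher in endurant frogs, unlike the sign of its gene total here. That total stood at -0.38 (SE 0.35) with TMM and at -0.01 by limma on log2(TPM + 1). The median of the 6 was the same with fsd2 set to its bound.

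Grancalcin (gca), a calcium-binding protein of the penta-EF-hand family, averaged 22.8 ± 6.14 CPM in the endurant and 29.4 ± 5.81 CPM in the burst-performant frogs (SD, n = 4 each), with a log2 fold change of -0.37 (SE 0.27). Tropomodulin 4 (tmod4), which caps the pointed ends of thin filaments, averaged 145 ± 25.8 CPM in the endurant and 195 ± 85.8 CPM in the burst-performant frogs (SD, n = 4 each). The Trinity gene joined to mybpc2, the fast-type myosin-binding protein C, had a log2 fold change of -0.04 (SE 0.40). Its longest isoform has 692 bases. The study describes a further, dissimilar mybpc2 transcript that was also higher in burst-performant frogs, which was not looked up here. For the 3 genes given here the groups overlapped.

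The gene fsd2 is known from mammalian striated muscle. It was at 0 in endurant frogs (A, D, E, G) and had 84.1, 46.3, 60.3 and 0 estimated counts in the burst-performant frogs (B, C, F, H). With the libraries of each group pooled, it was at least 65.3-fold higher in burst-performant frogs, against a floor of 3 counts for the 4 endurant libraries together. This bound leaves out the spread between frogs, and frog H was like the endurant frogs. By limma on log2(TPM + 1) its log2 fold change was -2.61. The CapZ-interacting gene rcsd1 averaged 10.7 ± 3.06 CPM in the endurant and 13.9 ± 5.47 CPM in the burst-performant frogs (SD, n = 4 each). For lmo7, whose product has a LIM domain, the values were 101 ± 25.8 CPM in the endurant and 105 ± 5.44 CPM in the burst-performant frogs (SD, n = 4 each).

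Some gene totals followed that of TR21009|c5_g1 across the frogs. Likeness was measured as Pearson's r of log2(CPM + 1) over the 8 frogs, among 6097 genes with a mean of at least 10 CPM, of which 29 reached an r of at least 0.9. The points share their libraries and scaling factors, so these coefficients are descriptions. The most alike were TR54048|c0_g1 (r = 0.989), with 39.5 ± 3.60 CPM in the endurant and 57.8 ± 16.3 CPM in the burst-performant frogs (SD, n = 4 each), and TR84240|c0_g1 (r = 0.974), with 372 ± 51.8 CPM in the endurant and 619 ± 256 CPM in the burst-performant frogs (SD, n = 4 each).

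Among the 95 other genes that could be joined to a symbol, the most alike were the tetraspanin gene tspan7 (r = 0.914), tmod4 (r = 0.832) and the organic cation transporter gene slc47a2 (r = 0.782). Each of the 95 holds a transcript called in the contrast that chose ocm4.1, and those named were picked by r. These coefficients are therefore descriptions too. The gene tspan7 averaged 21.4 ± 1.61 CPM in the endurant and 28.8 ± 6.01 CPM in the burst-performant frogs (SD, n = 4 each). In TMM-scaled CPM the tmod4 values were highest in frogs C and H, the same frogs in which ocm4.1 was highest. These frogs also had the lowest TMM factors, 0.774 and 0.797, and what part this had was not tested. In TPM tmod4 was at 194 in frog C, but its 148 in frog H was close to the 146 of endurant frog A. Burst-performant frog B was the lowest of all, at 100 TPM.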

How the data were processed

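RNA from the knee extensor muscles of 8 frogs was sequenced by the authors as paired ends from ScriptSeq libraries, trimmed with Trimmomatic, pooled into a single Trinity assembly and quantified per frog with Kallisto. For these tools no version was found in the sources used here. The deposited values are the estimated counts, which need not be whole, and the TPM computed by the authors from counts and effective lengths. The deposited files also give each transcript's length and effective length in bases.

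Here, estimated counts were rounded and compared between 4 endurant and 4 burst-performant frogs (endurant minus burst-performant) with edgeR 4.0.16 in R 4.3.3 (TMM, estimateDisp, glmQLFit, glmQLFTest, Benjamini-Hochberg), for transcripts and for gene totals that exceeded a CPM of 1 in 2 frogs or more. The authors' methods name TPM as input of their edgeR test, which was run as an alternative and called 4 transcripts. All 103 entries of the study's list instead matched edgeR's exact test on estimated counts, by direction and the printed digits of fold change and FDR. That test called 109 transcripts, the number that the study reports. Other alternatives were edgeR's exact test on estimated counts, DESeq2 1.42.0, limma 3.58.1 on log2(TPM + 1) and log2(TPM + 0.1), other scalings and filters, and leaving out each frog. The SE of an edgeR fold change was derived as its size divided by the square root of the quasi-likelihood F. For limma it was that size divided by the size of t. The fits were tested on simulated data.

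Symbols came from the study's list of called transcripts. All of its 103 entries were joined to a transcript of 96 genes in all, by direction, fold change and FDR of the exact test. Trait values per frog were those of the article. Named were all isoforms, the other 2 most abundant genes of the read cluster, the 2 genes and 3 symbols most alike by r, and 6 calcium and sarcomere symbols. The members and lists were chosen with earlier results of these data known. Numbers of read pairs limit low values by counting error, and reads shared between isoforms add to it.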

Additional observations from a re-analysis of the deposited data

Results flagged for a closer look

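In endurant frogs, the level of isoform i2 was set apart by frog D, at 2.52 TPM against 5.55, 5.90 and 6.12 TPM in the other 3, and so was its share of the gene, at 0.0396% against 0.0999%, 0.105% and 0.106%. Dixon's gap over range was 0.84 for the level and 0.904 for the share. The test was made on 24 groups of 4 frogs, and chance alone sets off about 1 in 20 such groups. By estimated counts frog D had the smallest endurant library, with 4715751, and it had 11 counts of i2. The study lists more read pairs for frog D than for endurant frogs A and G, and why fewer were counted was not tested.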

How the results depend on the processing

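The fold changes of the 5 isoforms and the gene total were recomputed under at least 18 alternatives each. With the sums of isoforms that hold i2, these were 112 values in all, and 0 reversed. These values share the frogs, the divided reads and the contrast that chose the gene through i2. Their common sign, and the calls of i2 and of the sums given next, are therefore no support. The fold changes of i2 lay between -4.57 and -3.20. Isoform i2 passed the threshold by DESeq2 (-4.21) and by edgeR's exact test (-4.21). By the exact test the sums of 3 (-3.66) and 4 isoforms (-3.41) that hold i2 also passed. Both sums were added after seeing the data. Leaving out each frog gave -4.57 to -3.54 for i2 (-3.54 without frog B), -4.00 to -2.12 for i1 (-2.12 without frog C) and -1.30 to -0.85 for the gene total. Leaving out each frog gave -0.902 to -0.311 points for the i2 share. DESeq2 called 2 isoforms and the exact test 1. Calls over all transcripts were 153 by DESeq2, 109 by the exact test, 4 by that test on TPM, 5 and 5 by limma with pseudocounts of 1 and 0.1, and 13 with no filter. Calls over gene totals were 33, 45, 1, 2 and 2, and 730 in the same order, and 0 to 1 without each frog, the 1 without frog C. With no filter, TR21009|c4_g1 (adjusted p = 5.33e-06) and fsd2 (adjusted p = 2.11e-13) were among the edgeR calls. Reversed values were, for mybpc2, 0.19 with library size only, 0.0026 with no filter and -0.23 to 0.56 without each frog (0.0042 without D, 0.56 without H), and for lmo7, 0.24 by the exact test on TPM, 0.091 with library size only, 0.37 and 0.39 by limma with pseudocounts of 1 and 0.1, and -0.23 to 0.079 without each frog (0.079 without A). TR21009|c4_g2 ranged from -0.77 to 0.36 without each frog. Leaving out each frog, r with acceleration ranged from -0.015 to 0.688 for the gene total and from -0.015 to 0.690 without i2, and r with velocity from 0.092 to 0.630 and from 0.085 to 0.625. Over all alternatives the lowest r with velocity was 0.063 for the gene total and 0.057 without i2. Without frog A, r with acceleration was 0.688 (exact permutation p = 0.0486, adjusted p = 0.0992). The causes of these changes were not tested. No paired analysis was possible because no letter is shared between the groups. Levels of i1 and i4 under 3 counts, in frogs G and D, are at the limit of depth.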

Other observations

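A further Trinity gene of the read cluster, TR21009|c3_g3, was singled out after its values were seen. It had 16.9, 13.1, 10.8 and 10.4 TPM in endurant frogs (A, D, E, G) and 53.2, 114, 15.8 and 25.0 TPM in the burst-performant frogs (B, C, F, H). Frogs B and C were the highest, as they were for i1 and i2, while frog F lay just below frog A. Its log2 fold change was -2.56 (SE 0.67), with 2.80 ± 0.384 CPM in the endurant and 16.6 ± 16.4 CPM in the burst-performant frogs (SD, n = 4 each).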
